A study of Mus musculus with 8 samples.

Results

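Mouse esophageal organoids that received TGFb1 together with BMP4 were compared with organoids that received TGFb1 alone. Organoids are 3-dimensional cultures grown from single cells, here from esophagi of wild-type mice embedded in a basement membrane gel, kept for 13 days. The TGFb1 + BMP4 group had TGFb1 at 1 ng/ml and BMP4 at 20 ng/ml, and the TGFb1 group had TGFb1 at 1 ng/ml. The ligands were given for 72 h with renewal every 24 h, and each group had 2 libraries, so 4 of the 8 libraries of the series entered the comparison directly. The other 4 libraries, used here for the spread between replicates and for a matched comparison of BMP4, came from organoids with BMP4 at 20 ng/ml and the inhibitor A8301 at 500 nM, and from organoids with the inhibitor alone. A8301 is a small molecule that blocks TGFb type I receptors, and the labels list no inhibitor for the groups that received TGFb1. Of 52636 genes in the table, the 16180 at 1 CPM or more in at least 2 of the 8 libraries were compared, where CPM is the deposited count relative to the library total. Whether the 2 libraries of each group stem from different animals or cultures is not in the labels, so p-values measure the spread between these libraries, which may be technical. In bulk RNA, fewer cells of a type and less RNA per cell cannot be told apart.

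BMP4 and TGFb1 are secreted ligands of the same superfamily, and each binds a pair of type II and type I receptor kinases. BMP receptors phosphorylate SMAD1, SMAD5 and SMAD9, TGFb receptors phosphorylate SMAD2 and SMAD3, and both kinds of SMAD share the partner SMAD4. BMP signalling induces the Id genes and its own inhibitors, such as Smad6, Smad7 and noggin. In the esophagus, BMP signalling is known as a regulator of the balance between basal progenitors, which carry Krt5, Krt14 and Krt15, and the differentiating suprabasal layers, which carry Krt4 and Krt13.

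The libraries were alike in size because the deposited counts had been scaled to a common total, between 20011215 and 20013233 per library, with 23718 to 27476 genes above 0. Ribosomal protein genes held 1.25 and 1.41% of the TGFb1 + BMP4 libraries and 1.35 and 1.84% of the TGFb1 libraries, and mitochondrial transcripts 0.366 and 0.628% against 0.455 and 0.631%. Epithelial markers were abundant in all 4 libraries, for example Krt5 at 4844 and 3765 CPM with TGFb1 + BMP4 and at 4838 and 4656 CPM with TGFb1. Replicate 2 of each group carried more signal of stromal cells. The 13 fibroblast markers summed to 302 and 1531 CPM in the TGFb1 + BMP4 libraries and to 324 and 1012 CPM in the TGFb1 libraries. The 15 skeletal muscle markers summed to 108 and 533 CPM with TGFb1 + BMP4 and to 76.2 and 321 CPM with TGFb1. In both cases the spread within a group was wider than the difference between the groups. Endothelial markers summed to at most 6.10 CPM in these libraries, and the T cell marker Cd3e reached at most 0.05 CPM.

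Adding BMP4 to TGFb1 changed 326 genes, 2.01% of those tested. It raised 149 (0.921%) and lowered 177 (1.09%). These are the genes called by limma on log2(CPM + 1) with a Benjamini-Hochberg adjusted p under 0.05, in a fit over all 8 libraries. At an unadjusted p under 0.05 there were 3220 genes. The log2 fold changes of the called genes, TGFb1 + BMP4 over TGFb1, ran from 0.58 to 5.60 upward with a median of 1.41, and from -0.61 to -4.13 downward with a median of -1.37. Protein-coding genes made up 134 of the higher and 159 of the lower calls. In each of the 326 called genes both libraries of one group lay beyond both libraries of the other. Such separation was frequent among all tested genes, at 38.3% in the upward and 14.4% in the downward direction.

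The scale of the comparison has an offset. The median log2 fold change of all tested genes was 0.13, against 0.01 when libraries were scaled by the median of ratios, a shift of 0.12. Under that scaling 94 genes were called higher and 223 lower, so the share of upward calls was 29.7% in place of 45.7%, and 262 of the 326 calls were also called in the same direction. With the replicate number as a block, 574 genes (3.55%) were called higher and 547 (3.38%) lower, and these included all 326 calls in the same direction. The calls leaned on having all libraries. Without TGFb1 + BMP4 replicate 1 there were 13 higher and 6 lower calls, and without TGFb1 + BMP4 replicate 2 there were 15 and 11. Without TGFb1 replicate 1 there were 34 and 124, and without TGFb1 replicate 2 there were 18 and 44. Without inhibitor replicate 1, and likewise without inhibitor replicate 2, there were 31 and 42, although these libraries enter only through the shared estimate of the spread. Genes that stayed called with any 1 of the 8 libraries left out numbered 4 upward, namely C1qtnf3, Wfdc18, Atoh8 and Fgf1, and 6 downward, which included Krt15, Sprr3, Hsd17b2 and Upp1.

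**Figure D1:**
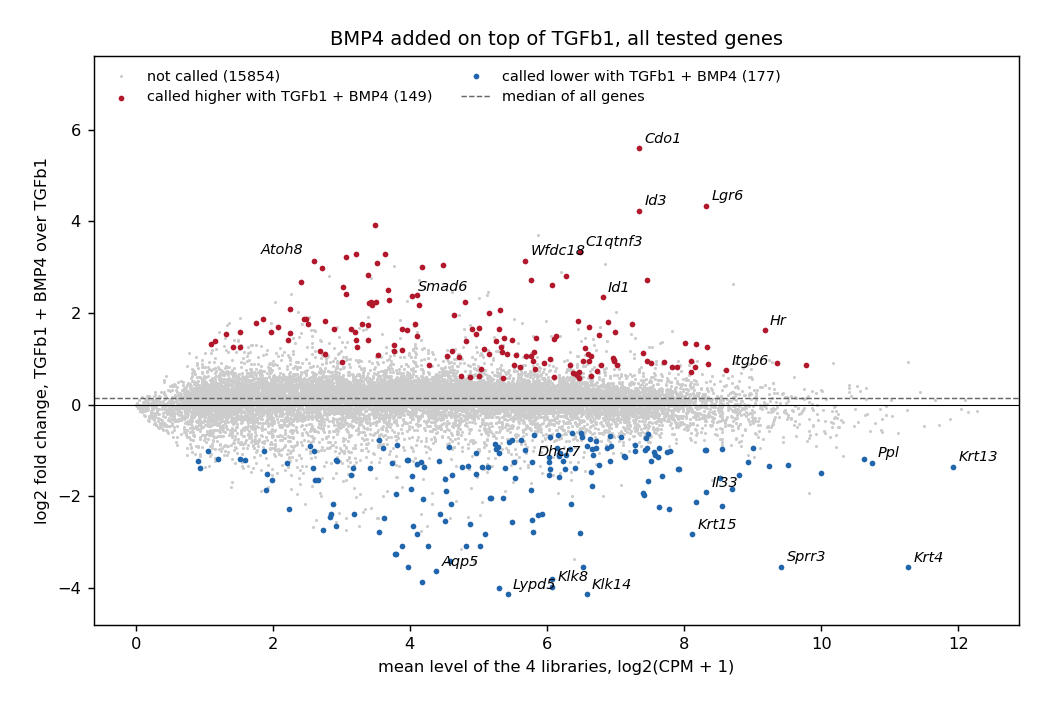
Each point is one of the 16180 tested genes, with the mean level of the 4 libraries on the horizontal axis, as log2(CPM + 1), and the log2 fold change of TGFb1 + BMP4 over TGFb1 on the vertical axis. The 149 genes called higher and the 177 called lower are coloured, and the dashed line is the median of all genes, 0.13. Cdo1 lies highest at 5.60, and the abundant genes Krt4, Sprr3 and Krt13 lie below the line.

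The known response genes of BMP signalling were higher when BMP4 was present. Of 25 tested genes of a BMP response list, 8 rose and 1 fell (0.921% and 1.09% over all tested genes), and the list's median log2 fold change was 1.24 against 0.13 over all genes. The 8 were Id1, Id3 and Id4, the inhibitory SMAD genes Smad6 and Smad7, the antagonist gene Nog, the transcription factor gene Atoh8 and the kinase gene Sgk1. Sox11, the gene of a developmental transcription factor, was the one that fell, to 9.14 and 9.74 CPM with TGFb1 + BMP4 against 27.7 and 20.7 CPM with TGFb1 (adjusted p = 0.0329). Its call was lost with a pseudocount of 0.1 (0.0878) and with any of the 4 libraries left out (0.0803 to 0.151). Id proteins lack a DNA-binding region and hold basic helix-loop-helix factors in inactive dimers. Id3 (ENSMUSG00000007872, chromosome 4, 136143497 to 136145755, GRCm38) was at 328 and 284 CPM with TGFb1 + BMP4 and at 10.9 and 21.2 CPM with TGFb1. Both libraries with BMP4 lay far above both without it, a 19-fold ratio of the means. The log2 fold change was 4.23 ± 0.33 (SE) with an adjusted p = 0.0108, and the adjusted p was 0.0545 without TGFb1 + BMP4 replicate 1.

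Id1 and Id4 moved the same way from different levels. Id1 was at 213 and 157 CPM with TGFb1 + BMP4 and at 23.8 and 51.7 CPM with TGFb1 (log2 fold change 2.35 ± 0.33, adjusted p = 0.0273). Id4 (chromosome 13, 48261228 to 48266026) was at 16.6 and 15.1 CPM with TGFb1 + BMP4 and at 0.55 and 0.949 CPM with TGFb1 (3.28 ± 0.33, adjusted p = 0.0126). The groups did not overlap for either gene, and Id4 was close to undetected without BMP4. Id1 lost its call without either TGFb1 + BMP4 library (adjusted p = 0.135 and 0.105), as did Id4 (0.0742 and 0.0744). Id2 behaved differently, with 147 and 140 CPM with TGFb1 + BMP4 and 99.9 and 91.7 CPM with TGFb1, and was not called (0.58 ± 0.20, adjusted p = 0.190).

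The feedback inhibitors of the pathway rose as well. Smad6 (ENSMUSG00000036867, chromosome 9, 63953076 to 64022059), whose product blocks BMP receptors and SMAD1, was at 27.7 and 25.2 CPM with TGFb1 + BMP4 and at 4.35 and 4.30 CPM with TGFb1. Within each group its libraries nearly coincided, and the log2 fold change was 2.36 ± 0.25 (adjusted p = 0.0130). Its call was lost without TGFb1 + BMP4 replicate 1 (adjusted p = 0.0808), TGFb1 + BMP4 replicate 2 (0.0771) or TGFb1 replicate 2 (0.0630). Nog, the gene of the secreted BMP antagonist noggin, was at 12.2 and 9.19 CPM with TGFb1 + BMP4 and at 0.3 and 0.65 CPM with TGFb1 (2.99 ± 0.34, adjusted p = 0.0172, and 0.0608 to 0.0924 with each of the 4 libraries left out). Smad7, whose product inhibits both branches, was at 145 and 117 CPM with TGFb1 + BMP4 and at 62.1 and 48.2 CPM with TGFb1. Its smaller rise of 1.24 ± 0.21 passed at adjusted p = 0.0422 but not with median-of-ratios scaling (0.0885), nor with any of the 4 libraries left out (0.0776 to 0.190). Bambi, the gene of a receptor without a kinase, was at 17.3 and 16.3 CPM with TGFb1 + BMP4 and at 6.65 and 6.20 CPM with TGFb1. It missed the threshold (1.27 ± 0.23, adjusted p = 0.0523) and passed with the replicate block (adjusted p = 0.0211) and with a pseudocount of 0.1 (0.0492).

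Promoter sequence is shown for 3 of these genes, since they combined low levels without BMP4 with clear rises. The windows run from 250 bases before to 20 bases after the start of a RefSeq transcript, on the gene's own strand in build GRCm38.p6, and 5 of the 8 risen list genes had such a window. Capitals mark matches to GTCTAGAC, the palindrome known as the SMAD-binding element, or to GGCGCC, a GC-rich palindrome known from BMP-responsive regions of Id genes. Both motifs read the same on either strand and do not overlap each other in letters. The window of Smad6 is chr9:64022040-64022309 on the minus strand, that of Id4 chr13:48260866-48261135 on the plus strand, and that of Atoh8 chr6:72235558-72235827 on the minus strand.
Smad6: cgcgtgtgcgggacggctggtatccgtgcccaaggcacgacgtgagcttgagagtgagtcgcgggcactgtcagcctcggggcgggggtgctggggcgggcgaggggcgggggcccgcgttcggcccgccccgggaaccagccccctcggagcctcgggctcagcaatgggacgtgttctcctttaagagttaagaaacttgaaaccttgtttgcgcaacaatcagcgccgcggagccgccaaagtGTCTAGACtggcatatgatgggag
Id4: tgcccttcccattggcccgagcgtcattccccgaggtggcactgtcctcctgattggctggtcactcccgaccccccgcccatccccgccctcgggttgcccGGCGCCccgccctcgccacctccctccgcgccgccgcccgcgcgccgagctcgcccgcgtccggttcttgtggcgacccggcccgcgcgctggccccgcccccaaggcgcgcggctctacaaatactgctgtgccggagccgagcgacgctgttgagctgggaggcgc
Atoh8: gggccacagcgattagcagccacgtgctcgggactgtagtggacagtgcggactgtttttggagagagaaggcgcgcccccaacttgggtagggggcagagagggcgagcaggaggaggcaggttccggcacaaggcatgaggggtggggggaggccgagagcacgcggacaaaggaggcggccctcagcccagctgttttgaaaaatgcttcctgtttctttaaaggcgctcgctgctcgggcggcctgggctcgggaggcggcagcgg

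The match in Smad6 begins at position -4 from the transcript start and the match in Id4 at -148, and neither motif was found in the Atoh8 window. For Id4 the RefSeq start lies before the GENCODE gene start given above, so its whole window lies upstream of that gene and -148 counts from the RefSeq start alone. Among all 32851 promoter windows, 0.183% held GTCTAGAC and 10.4% held GGCGCC, and among windows of tested genes 0.222% and 17.5%. Of 129 windows of genes that rose, 1 held GTCTAGAC and 30 (23.3%) held GGCGCC. Of 156 windows of genes that fell, 0 held GTCTAGAC and 11 (7.05%) held GGCGCC. A match describes letters in the window and shows no binding.

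Atoh8, a basic helix-loop-helix factor gene (ENSMUSG00000037621, chromosome 6, 72206177 to 72235577), was at 7.75 and 12.2 CPM with TGFb1 + BMP4 and at 0.15 and 0.3 CPM with TGFb1. The rise was 3.13 ± 0.25 (adjusted p = 0.0108) and stayed called with each library left out (highest adjusted p = 0.0462). Sgk1, a kinase gene, was at 368 and 368 CPM with TGFb1 + BMP4 and at 147 and 144 CPM with TGFb1 (1.33 ± 0.17, adjusted p = 0.0225), and lost its call without any of the 4 libraries (0.0795 to 0.112). Of the list members not called, Dlx3 and Dlx2, homeobox genes, had log2 fold changes of 3.02 and 2.71 and passed with the replicate block. Smad9, the gene of a BMP receptor-regulated SMAD, was at 0.3 and 2.35 CPM with TGFb1 + BMP4 and at 0.1 and 0.4 CPM with TGFb1, with overlapping libraries (adjusted p = 0.396). Grem1, another secreted antagonist gene, was at 31.6 and 179 CPM with TGFb1 + BMP4 and at 22.6 and 65.2 CPM with TGFb1, higher in replicate 2 of both groups as the fibroblast markers were.

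**Figure D2:**
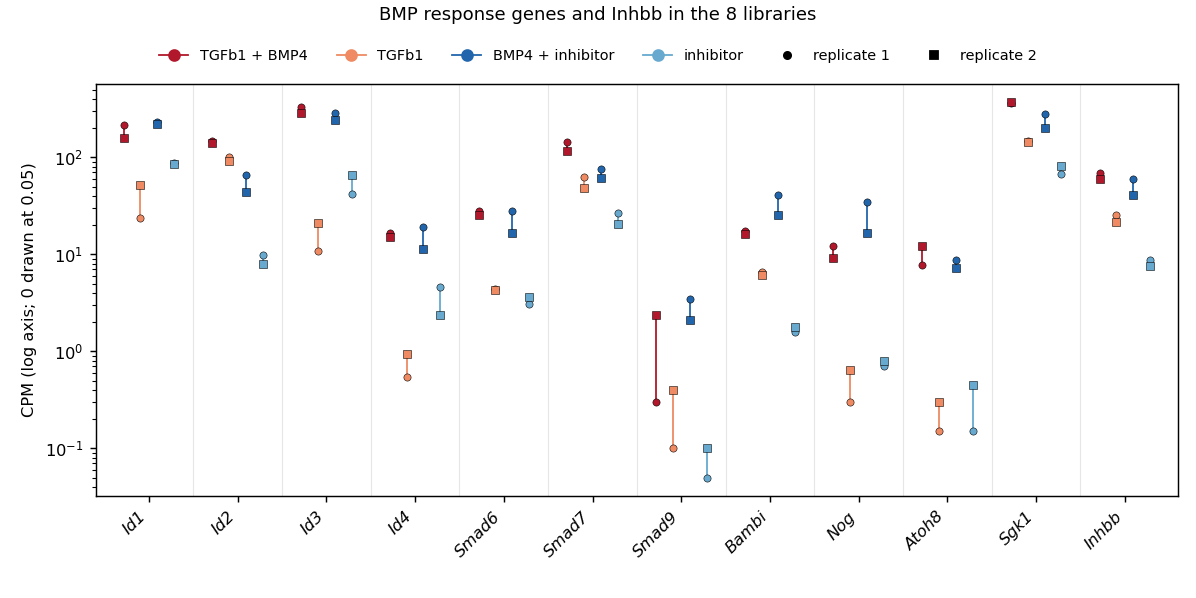
CPM on a log axis of 11 BMP response genes and the activin subunit gene Inhbb in the 8 libraries, with circles for replicate 1 and squares for replicate 2, in the order TGFb1 + BMP4, TGFb1, BMP4 + inhibitor and inhibitor. The TGFb1 + BMP4 libraries lie above the TGFb1 libraries for 11 of the 12 genes shown, and the Smad9 libraries overlap.

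Ligands, receptors and antagonists of both branches mostly did not pass, as held for all tested genes, of which 2.01% were called. Of 36 tested members 1 rose, Inhbb, which encodes the beta B subunit of activins and inhibins. It was at 69.7 and 59.4 CPM with TGFb1 + BMP4 and at 25.5 and 21.6 CPM with TGFb1, so that both libraries with BMP4 were more than double any library without it. The log2 fold change was 1.42 ± 0.21 (adjusted p = 0.0290), and the gene missed the threshold under median-of-ratios scaling (0.0522) and with any of the 4 libraries left out (0.0793 to 0.15). The ligand gene Tgfb1 itself was at 197 and 205 CPM with TGFb1 + BMP4 and at 114 and 128 CPM with TGFb1, and the receptor gene Tgfbr1 at 80.7 and 112 CPM and at 59.6 and 65.1 CPM in the same order. Both passed only with the replicate block. The endogenous Bmp4 transcript stayed at or below 1.5 CPM in all 4 libraries, and the receptor genes Bmpr1a and Bmpr2 were not called, with log2 fold changes of 0.44 and 0.35.

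Target genes of TGFb were called at about the rate of all genes. The median log2 fold change of 27 tested members of a TGFb response list was 0.29, against 0.13 over all genes. Of the 27, 1 rose and 0 fell, where 0.921% and 1.09% of all tested genes did. The one was Itgb6, a subunit of the integrin that activates latent TGFb, at 469 and 507 CPM with TGFb1 + BMP4 and at 318 and 264 CPM with TGFb1 (0.75 ± 0.13, adjusted p = 0.0422). That small rise missed the threshold under median-of-ratios scaling (adjusted p = 0.127) and with any of the 4 libraries left out (0.0694 to 0.203). Tgfbi, a TGFb-induced matrix protein gene, was at 1475 and 1467 CPM with TGFb1 + BMP4 and at 1337 and 1258 CPM with TGFb1 (0.18 ± 0.21, adjusted p = 0.683). Pmepa1, a feedback inhibitor gene, was at 638 and 575 CPM with TGFb1 + BMP4 and at 427 and 394 CPM with TGFb1, and its groups were apart but the difference did not pass (0.56 ± 0.24, adjusted p = 0.264). Skil, a SMAD corepressor gene, passed only with the replicate block (adjusted p = 0.0367), while Cdkn2b, whose product inhibits CDK4 and CDK6, did not pass (0.32 ± 0.21, adjusted p = 0.447).

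The largest rises lay mostly outside the list of BMP response genes. Cdo1, the gene of cysteine dioxygenase, which starts the breakdown of cysteine, was at 366 and 267 CPM with TGFb1 + BMP4 and at 5.05 and 5.95 CPM with TGFb1. This was the largest log2 fold change among the called genes (5.60 ± 0.56, adjusted p = 0.0126), and its adjusted p exceeded the threshold without TGFb1 + BMP4 replicate 1 (0.0742), TGFb1 + BMP4 replicate 2 (0.0704) or TGFb1 replicate 2 (0.0539). Slc6a6, the gene of the taurine transporter, chosen after its values were seen, was at 259 and 353 CPM with TGFb1 + BMP4 and at 42.5 and 48.2 CPM with TGFb1 (2.71 ± 0.31, adjusted p = 0.0164, and 0.0572 to 0.0909 with each of the 4 libraries left out). Lgr6 (ENSMUSG00000042793, chromosome 1, 134983301 to 135105276), a receptor of R-spondins and a marker of epithelial stem cells in skin, was at 717 and 501 CPM with TGFb1 + BMP4 and at 38.0 and 21.5 CPM with TGFb1. It was among the most abundant of the risen genes, and its rise of 4.34 ± 0.74 passed at adjusted p = 0.0446 with all libraries but not with any of the 4 left out (0.111 to 0.2). Lgr6 was the one of 27 Wnt pathway list members that was called (5 rose and 3 fell with the replicate block). The shares over all tested genes were 2.01% called, and 3.55% higher and 3.38% lower with the block. The called genes Fzd1, Fzd6 and Porcn below are not members of this list.

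Secreted and matrix-modifying proteins were among the other large rises. C1qtnf3 (chromosome 15, 10952332 to 10980150), which encodes a secreted C1q and TNF related protein, was at 208 and 115 CPM with TGFb1 + BMP4 and at 16.9 and 12.2 CPM with TGFb1 (3.34 ± 0.31, adjusted p = 0.0116). Wfdc18, which encodes a secreted protein with a whey acidic protein domain, was at 110 and 71.7 CPM with TGFb1 + BMP4 and at 10.1 and 8.39 CPM with TGFb1 (3.14 ± 0.24, adjusted p = 0.0108). For both genes the groups were widely apart, and both stayed called with each library left out. Adamts9, a metalloprotease gene, was at 26.8 and 12.6 CPM with TGFb1 + BMP4 and at 0.999 and 1.65 CPM with TGFb1 (3.08 ± 0.37, adjusted p = 0.0188). It was the only one of 23 matrix proteases and inhibitors called (3 rose and 1 fell with the replicate block). Of all tested genes 2.01% were called, and with the block 3.55% rose and 3.38% fell. Chst8, which encodes a sulfotransferase acting on sugar chains, was at 24.9 and 18.5 CPM with TGFb1 + BMP4 and at 1.5 and 1.1 CPM with TGFb1 (3.29 ± 0.30, adjusted p = 0.0116). Cybrd1, the gene of a membrane ferric reductase, was at 18.1 and 22.2 CPM with TGFb1 + BMP4 and at 0.4 and 0.4 CPM with TGFb1 (3.91 ± 0.32, adjusted p = 0.0108). The last 3 each lost their calls without TGFb1 + BMP4 replicate 1 (adjusted p = 0.0658, 0.0658 and 0.0527), and Chst8 and Cybrd1 also without TGFb1 + BMP4 replicate 2 (0.0550 and 0.0599). Adamts9 also lost it without TGFb1 replicate 1 (0.0655) or 2 (0.0647), and Chst8 without TGFb1 replicate 2 (0.0522).

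Tgm7, a transglutaminase gene (chromosome 2, 121093565 to 121109795), was at 18.1 and 10.1 CPM with TGFb1 + BMP4 and at 0.75 and 0.4 CPM with TGFb1 (3.22 ± 0.35, adjusted p = 0.0149). Its level with BMP4 was far below that in BMP4 + inhibitor organoids, which had 810 and 573 CPM. Several more risen genes were picked after their values were seen. Fgf1, a growth factor gene, was at 30.9 and 31.2 CPM with TGFb1 + BMP4 and at 3.1 and 2.95 CPM with TGFb1 (2.99 ± 0.17, adjusted p = 0.00617), with replicates that nearly coincided. Hr, a corepressor gene known from hair follicles, was at 942 and 798 CPM with TGFb1 + BMP4 and at 257 and 308 CPM with TGFb1 (1.62 ± 0.21, adjusted p = 0.0224). Runx2, a transcription factor gene known from bone, was at 202 and 176 CPM with TGFb1 + BMP4 and at 68.3 and 57.5 CPM with TGFb1 (1.58 ± 0.26, adjusted p = 0.0422, and 0.0669 with median-of-ratios scaling). All 4 libraries of each of these genes were apart by group. The Wnt receptor genes Fzd1 and Fzd6 rose by 1.03 ± 0.12 and 1.13 ± 0.19, and under median-of-ratios scaling Fzd6 missed the threshold (adjusted p = 0.0824). With 1 of the 4 libraries left out, the adjusted p reached 0.0738 for Tgm7, 0.101 for Fzd1, 0.109 for Hr, 0.19 for Runx2 and 0.2 for Fzd6, and stayed at or below 0.0416 for Fgf1.

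Gclc and Gclm, which encode the catalytic and modifier subunits of glutamate-cysteine ligase, and Gpx2, a glutathione peroxidase gene, were called higher. They and Gsta2 below were picked after their values were seen and stand for no list. Gclm was at 67.7 and 70.0 CPM with TGFb1 + BMP4 and at 30.7 and 34.5 CPM with TGFb1 (1.06 ± 0.13, adjusted p = 0.0196). Gpx2 was at 143 and 118 CPM with TGFb1 + BMP4 and at 63.8 and 57.1 CPM with TGFb1 (1.1 ± 0.17, adjusted p = 0.0330). Gclc was at 334 and 397 CPM with TGFb1 + BMP4 and at 212 and 198 CPM with TGFb1 (0.83 ± 0.14, adjusted p = 0.0403). Gclm and Gpx2 were about double with BMP4 and Gclc rose less, and under median-of-ratios scaling Gclc and Gpx2 missed the threshold (adjusted p = 0.0678 and 0.0786). None of the 3 passed with 1 of the 4 libraries left out (0.0695 to 0.2). Gsta2, a glutathione transferase gene, was called in the other direction, at 1.70 and 0.949 CPM with TGFb1 + BMP4 and at 9.49 and 12.5 CPM with TGFb1 (-2.38 ± 0.39, adjusted p = 0.0422, and 0.112 to 0.19 with each of the 4 libraries left out).

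Genes of the differentiated esophageal epithelium fell when BMP4 was added. Of 29 tested suprabasal genes, 9 fell and 0 rose (15 fell with the replicate block), against 1.09% lower over all tested genes (3.38% with the block). The median log2 fold change was -1.31, and all 29 had a negative value, against 5122 of the 16180 genes tested. The 9 were the keratin genes Krt4, Krt13 and Krt78, the cornified envelope genes Sprr1a, Sprr3, Ppl, Cnfn and Crnn, and the transglutaminase gene Tgm3. Krt4 (ENSMUSG00000059668, chromosome 15, 101918535 to 101924735), the type II keratin of suprabasal esophageal cells, was at 323 and 459 CPM with TGFb1 + BMP4 and at 3870 and 5200 CPM with TGFb1. The 2 groups were more than 8 times apart even at their nearest libraries. The means differed 11.6-fold, with a log2 fold change of -3.54 ± 0.31 (adjusted p = 0.0116, and 0.0640 without TGFb1 + BMP4 replicate 1). Its pairing partner Krt13 (ENSMUSG00000044041, chromosome 11, 100117327 to 100121566) was at 2336 and 2047 CPM with TGFb1 + BMP4 and at 5086 and 6121 CPM with TGFb1. It fell less than Krt4, by 1.35 on the log2 scale (SE 0.19, adjusted p = 0.0244), and did not pass with any of the 4 libraries left out (0.0759 to 0.132).

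Cornified envelope precursors, which transglutaminases crosslink into the envelope of the outermost cells, fell by different amounts. Sprr3 (chromosome 3, 92456502 to 92458720), a small proline-rich protein gene of the esophagus, was at 89.4 and 125 CPM with TGFb1 + BMP4 and at 1037 and 1479 CPM with TGFb1. The fall of 3.54 on the log2 scale (SE 0.26, adjusted p = 0.0108) stayed called with each library left out (highest adjusted p = 0.0425). Ppl, the gene of periplakin, was at 1044 and 972 CPM with TGFb1 + BMP4 and at 2418 and 2440 CPM with TGFb1 (-1.27 ± 0.15, adjusted p = 0.0196). Sprr1a was at 469 and 371 CPM with TGFb1 + BMP4 and at 918 and 1163 CPM with TGFb1 (-1.31 ± 0.17, adjusted p = 0.0225). The groups did not overlap for these genes, and Ppl and Sprr1a lost their calls without TGFb1 + BMP4 replicate 1 (adjusted p = 0.0930 and 0.0738), TGFb1 + BMP4 replicate 2 (0.109 and 0.111) or TGFb1 replicate 2 (0.103 and 0.106), and Ppl also without TGFb1 replicate 1 (0.0807). Krt78, Cnfn and Crnn also did not pass without TGFb1 + BMP4 replicate 1 or 2 (0.0658 to 0.158), and Cnfn and Crnn not without TGFb1 replicate 2 (0.108 and 0.177), nor Crnn without TGFb1 replicate 1 (0.136). Other suprabasal genes were low or uneven, such as Rptn, the repetin gene, at 0.899 and 6.80 CPM with TGFb1 + BMP4 and at 3.90 and 322 CPM with TGFb1 (not called). Ecm1, a secreted matrix protein gene, was at 4980 and 4470 CPM with TGFb1 + BMP4 and at 5383 and 4982 CPM with TGFb1 (-0.13 ± 0.18, adjusted p = 0.735).

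The kallikreins were among the deepest falls. These are secreted serine proteases, encoded in a cluster on chromosome 7, that cut the junctions between shedding squamous cells. Chosen as a family after the values were seen, 6 of 9 tested kallikrein genes fell and 0 rose (7 with the replicate block), and the median of the 9 was -2.73. Over all tested genes 1.09% fell, or 3.38% with the replicate block. Klk14 (ENSMUSG00000044737, 43690418 to 43695536) was at 5.30 and 9.09 CPM with TGFb1 + BMP4 and at 63.9 and 300 CPM with TGFb1. Both TGFb1 libraries were several times above both TGFb1 + BMP4 libraries but differed widely from each other (-4.13 ± 0.64, adjusted p = 0.0351). Klk8 (ENSMUSG00000064023, 43797577 to 43803826) was at 5.20 and 7.14 CPM with TGFb1 + BMP4 and at 64.4 and 189 CPM with TGFb1 (-3.97 ± 0.45, adjusted p = 0.0162). Klk9, Klk10, Klk12 and Klk13 were the other called genes, with log2 fold changes of -3.55, -1.98, -2.39 and -3.55. Klk11 passed only with the replicate block (adjusted p = 0.0273), and Klk7, at 0.1 and 0.45 CPM with TGFb1 + BMP4 and at 1.45 and 27.5 CPM with TGFb1, did not pass.

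The spread between the TGFb1 libraries touches this group. TGFb1 replicate 2 was above replicate 1 by a median log2 ratio of 1.37 over the kallikreins, while the corresponding ratio in the TGFb1 + BMP4 libraries was 0.28. Of the 29 suprabasal genes, 12 were higher in replicate 2 with TGFb1 + BMP4 and 23 with TGFb1. Without TGFb1 replicate 1 the kallikrein calls had adjusted p between 0.00237 and 0.00475, and without TGFb1 + BMP4 replicate 1 or 2 none of the 6 passed (0.0779 to 0.197). Without TGFb1 replicate 2 Klk10 did not pass (0.0569). The stromal marker sums above were also higher in replicate 2, and their part in these differences was not tested.

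**Figure D3:**
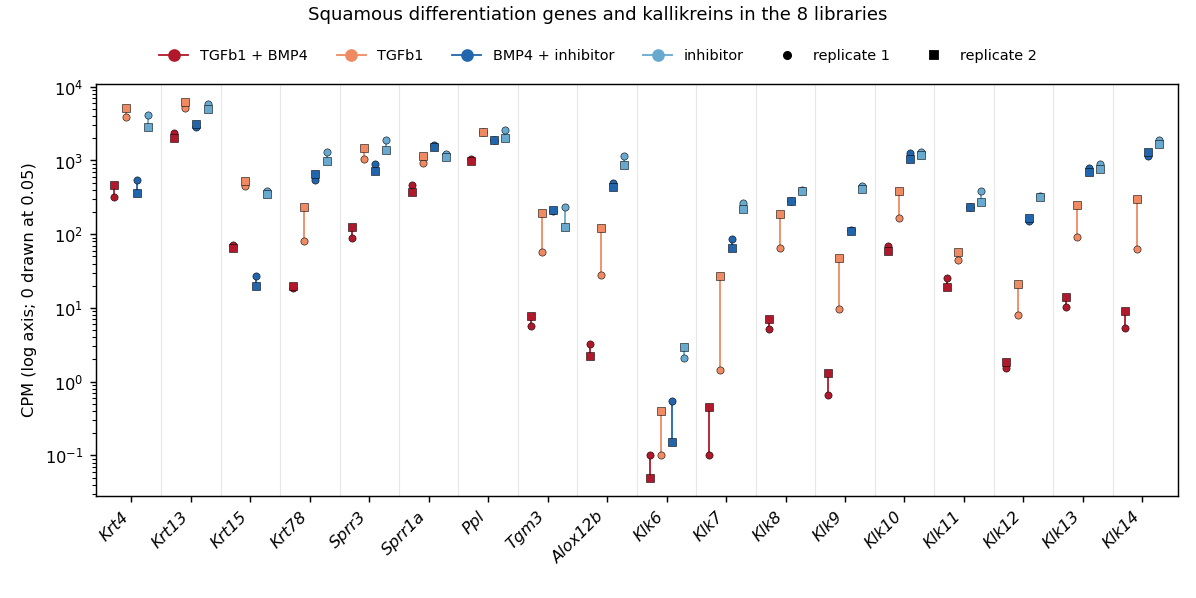
CPM on a log axis of squamous differentiation genes and the 9 tested kallikreins in the 8 libraries, with circles for replicate 1 and squares for replicate 2. The TGFb1 + BMP4 libraries lie below the TGFb1 libraries in all genes but Klk6, which was near 0, and the gap between the TGFb1 replicates is widest for Klk7, at 1.45 and 27.5 CPM.

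Other barrier genes moved with them. Tgm3, a transglutaminase that crosslinks the envelope, was at 5.75 and 7.84 CPM with TGFb1 + BMP4 and at 57.6 and 195 CPM with TGFb1 (-3.80 ± 0.55, adjusted p = 0.0290). Alox12b, the lipoxygenase gene of the barrier lipid pathway, was at 3.20 and 2.25 CPM with TGFb1 + BMP4 and at 27.6 and 120 CPM with TGFb1 (-3.99 ± 0.60, adjusted p = 0.0319). Lypd5, a surface protein gene of the Ly6 family, was at 1.80 and 4.35 CPM with TGFb1 + BMP4 and at 35 and 127 CPM with TGFb1 (-4.13 ± 0.58, adjusted p = 0.0258). In each of these the groups were apart and the TGFb1 libraries uneven. Cers3, the ceramide synthase gene of ultra-long barrier lipids, was even within groups, at 63.2 and 59.0 CPM with TGFb1 + BMP4 and at 148 and 158 CPM with TGFb1 (-1.31 ± 0.13, adjusted p = 0.0123). Serpinb11, a clade B serpin gene, was at 135 and 126 CPM with TGFb1 + BMP4 and at 324 and 371 CPM with TGFb1 (-1.40 ± 0.16, adjusted p = 0.0162). In the barrier enzyme list of transglutaminases, kallikreins and clade B serpins, 9 of 25 tested genes fell and 1, Tgm7, rose, against 1.09% and 0.921% of all tested genes. These falls include kallikreins given above, such as Klk8, so the 2 counts are not separate. In the list of lipid mediators and barrier lipids 2 of 23 fell, Alox12b and Cers3 (5 with the replicate block, and 5 with median-of-ratios scaling). With the block 3.38% of all tested genes fell. Without TGFb1 + BMP4 replicate 1 or 2 the adjusted p of Tgm3, Alox12b, Lypd5, Cers3 and Serpinb11 lay between 0.0658 and 0.147, and without TGFb1 replicate 2 Tgm3 (0.0522), Cers3 (0.0587) and Serpinb11 (0.0796) did not pass.

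Families with near-identical copies fell in part. Of 16 tested small proline-rich genes 4 fell and 0 rose (8 with the replicate block), and of 20 late cornified envelope genes 3 fell, Lce3a, Lce3b and Lce3f. The share that fell over all tested genes was 1.09%, and 3.38% with the replicate block. Sprr2i was at 0.8 and 1.25 CPM with TGFb1 + BMP4 and at 15.3 and 51.2 CPM with TGFb1 (-3.86 ± 0.49, adjusted p = 0.0201). Without TGFb1 + BMP4 replicate 1 or 2 none of Sprr2i and the 3 Lce genes passed (0.0999 to 0.197). Sprr2 and Lce genes share sequence, so the split of reads between copies is uncertain. The alarmin subunit genes S100a8 and S100a9, chosen after their values were seen, were at 3.00 and 4.10 CPM and at 13.8 and 16.5 CPM with TGFb1 + BMP4, against 24.2 and 31.0 CPM and 77.6 and 108 CPM with TGFb1. These falls, of 2.65 and 2.52 on the log2 scale, passed at adjusted p = 0.0243 and 0.0159. S100a8 did not pass with any of the 4 libraries left out (0.0675 to 0.122), and S100a9 only without TGFb1 replicate 1 (0.0256).

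Of the basal keratins Krt15 fell, while Krt5 and Krt14 did not pass. Krt15 (ENSMUSG00000054146, chromosome 11, 100131758 to 100135928), a keratin of basal progenitor cells, was at 70.9 and 64.7 CPM with TGFb1 + BMP4 and at 454 and 520 CPM with TGFb1. Both groups were tight and far apart, with a log2 fold change of -2.83 ± 0.16 (adjusted p = 0.00617) that stayed called with each library left out (highest adjusted p = 0.0416). Krt5 was given above and had a log2 fold change of -0.15 ± 0.19 (adjusted p = 0.697). Krt14 was at 5162 and 3923 CPM with TGFb1 + BMP4 and at 4369 and 3990 CPM with TGFb1, with overlapping libraries (adjusted p = 0.801). Trp63, the master regulator gene of squamous basal cells, was at 324 and 296 CPM with TGFb1 + BMP4 and at 218 and 244 CPM with TGFb1, apart but not called (0.42 ± 0.11, adjusted p = 0.122). Sox2, another regulator of the esophageal lineage, had a log2 fold change of 0.02 ± 0.18 (-0.12 with median-of-ratios scaling). Of 22 basal list genes 2 fell (2 rose and 3 fell with the replicate block), Krt15 and Lgals7, which encodes galectin-7 (-1.78 ± 0.18, adjusted p = 0.0127). Of all tested genes 1.09% fell, and with the block 3.55% rose and 3.38% fell. Lgals7 lost its call without TGFb1 + BMP4 replicate 1 (0.0658), TGFb1 + BMP4 replicate 2 (0.0779) or TGFb1 replicate 2 (0.0611).

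Keratins of simple and columnar epithelium were not called. Krt7 was at 769 and 621 CPM with TGFb1 + BMP4 and at 1047 and 824 CPM with TGFb1 (-0.43 ± 0.39, adjusted p = 0.588). Krt20 was at 384 and 513 CPM with TGFb1 + BMP4 and at 324 and 334 CPM with TGFb1 (0.43 ± 0.22, adjusted p = 0.344). Krt8, Krt18 and Krt19 had log2 fold changes of -0.26, -0.19 and -0.15 and were not called. Of the 32 members of a columnar list 14 were expressed enough to be tested, and 0 were called (2 fell with the replicate block, the keratin gene Krt23 and the mucin gene Muc4). The shares over all tested genes were 2.01% called, and 3.38% lower with the block. The intestinal factor genes Cdx1 and Cdx2 and the trefoil gene Tff3 were at 0 in all 4 libraries. Krt10, a keratin of the suprabasal epidermis, was at 241 and 162 CPM with TGFb1 + BMP4 and at 153 and 89.3 CPM with TGFb1 (0.75 ± 0.53, adjusted p = 0.481). Krt1, its epidermal partner, stayed below 1 CPM in these libraries and was not tested.

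Genes of cholesterol synthesis fell together by modest amounts. Of 23 tested members of a sterol synthesis list 8 fell and 0 rose (18 fell with the replicate block), against 1.09% lower over all tested genes (3.38% with the block). All 23 log2 fold changes were negative with a median of -0.78, against 5122 negative values among the 16180 genes tested. The genes that fell included Idi1, Fdps, Lss, Cyp51, Msmo1, Hsd17b7 and Dhcr7. Dhcr7, the gene of the last reductase of the pathway, was at 32.0 and 31.6 CPM with TGFb1 + BMP4 and at 77.6 and 75.5 CPM with TGFb1. The replicates nearly coincided, and the log2 fold change was -1.24 ± 0.12 (adjusted p = 0.0124). Idi1, the isopentenyl diphosphate isomerase gene, was at 19.6 and 19 CPM with TGFb1 + BMP4 and at 38.4 and 43.9 CPM with TGFb1 (-1.05 ± 0.13, adjusted p = 0.0206). Cyp51, the lanosterol demethylase gene, was at 122 and 106 CPM with TGFb1 + BMP4 and at 221 and 235 CPM with TGFb1 (-1.0 ± 0.12, adjusted p = 0.0188). Levels of Dhcr7, Idi1 and Cyp51 were about halved. Groups were apart downward in 21 of the 23, against 14.4% of all tested genes. The regulator gene Srebf2 was not called (-0.07). With median-of-ratios scaling 6 of the 8 passed. With 1 of the 4 libraries left out Dhcr7 passed only without TGFb1 replicate 1 (adjusted p = 0.0427, otherwise 0.0587 to 0.0767), and the other 7 did not pass (0.0568 to 0.201).

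Single genes with other roles were also lower. Aqp5, a water channel gene of glands (chromosome 15, 99590782 to 99594829), was at 1.6 and 2.55 CPM with TGFb1 + BMP4 and at 28.6 and 46.9 CPM with TGFb1 (-3.63 ± 0.40, adjusted p = 0.0160). Il33, the gene of an epithelial alarmin cytokine, was at 143 and 117 CPM with TGFb1 + BMP4 and at 641 and 376 CPM with TGFb1 (-1.91 ± 0.33, adjusted p = 0.0446). Notch4, a Notch receptor gene, was at 4.35 and 7.29 CPM with TGFb1 + BMP4 and at 32.6 and 43.0 CPM with TGFb1 (-2.53 ± 0.44, adjusted p = 0.0460). These groups did not overlap, and with 1 of the 4 libraries left out the adjusted p reached 0.0865 for Aqp5, 0.189 for Il33 and 0.206 for Notch4. The next genes were chosen after their values were seen. Adh7, an alcohol dehydrogenase that acts on retinol, was at 3.05 and 2.35 CPM with TGFb1 + BMP4 and at 15.8 and 23.8 CPM with TGFb1 (-2.47 ± 0.22, adjusted p = 0.0116), and Rbp2, a retinol-binding protein gene, was at 5.20 and 6.00 CPM against 39.6 and 75.6 CPM (-3.08 ± 0.32, adjusted p = 0.0127). Hsd17b2, which inactivates sex steroids, was at 22.2 and 21.7 CPM with TGFb1 + BMP4 and at 70.9 and 67.2 CPM with TGFb1 (-1.61 ± 0.10, adjusted p = 0.00617). Upp1, the uridine phosphorylase gene, was at 18.9 and 15.9 CPM with TGFb1 + BMP4 and at 92.8 and 101 CPM with TGFb1 (-2.41 ± 0.16, adjusted p = 0.00758). Hsd17b2 and Upp1 were tight in both groups and stayed called with each library left out, while Adh7 and Rbp2 did not without TGFb1 + BMP4 replicate 1 (adjusted p = 0.0545 and 0.0742) or 2 (0.0599 and 0.0744).

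Most other gene lists held no call or 1, where 2.01% of all tested genes were called. No member was called among 34 extracellular matrix, 23 EMT, 34 S phase and mitosis, 28 desmosome and junction, 21 interferon-stimulated and 40 ribosomal protein genes, whose medians were 0.11, 0.12, -0.68, -0.26, -0.09 and -0.24. Under median-of-ratios scaling the medians of the matrix and EMT lists were -0.03 and -0.02. With the replicate block 1, 2, 1, 6, 2 and 0 of these passed in either direction, where 3.55% of all tested genes rose and 3.38% fell. All 40 ribosomal protein genes had negative values, against 5122 of the 16180 genes tested, and under median-of-ratios scaling their median was -0.38. Groups were apart downward in 12 of the 40, against 14.4% of all tested genes. The proliferation gene Mki67 was at 1.90 and 14.5 CPM with TGFb1 + BMP4 and at 12.2 and 47.7 CPM with TGFb1, overlapping and higher in replicate 2 of both groups (adjusted p = 0.310). The collagen gene Col1a1 was at 615 and 2603 CPM with TGFb1 + BMP4 and at 525 and 1673 CPM with TGFb1, with the same ordering of replicates as the fibroblast markers. Of 27 glycolysis and hypoxia genes 1 fell (3 with the replicate block), the aldolase gene Aldoc, at 9.49 and 8.49 CPM with TGFb1 + BMP4 and at 24.2 and 22.6 CPM with TGFb1 (adjusted p = 0.0159, and 0.0655 to 0.0909 with each of the 4 libraries left out). Among markers of other cell types, Fbln1 of fibroblasts and Cd68 of macrophages fell and Smtn of smooth muscle rose. Each was the only call of its list without the block, of 12, 5 and 3 tested members, whose medians were 0.10, 0.27 and 0.60. The falls of Fbln1 and Cd68 thus went against the medians of their lists. With the replicate block 1 immune marker rose and 1 fell, and 2 smooth muscle markers rose. Smtn missed the threshold with median-of-ratios scaling (adjusted p = 0.132). With each of the 4 libraries left out Fbln1 and Smtn did not pass (0.0599 to 0.213), and Cd68 passed only without TGFb1 replicate 1 (0.032), while Ptprc, the pan-leukocyte gene, was at or below 0.3 CPM in these libraries. Of 15 tested Hox genes, chosen after the values were seen, 3 rose (2 with median-of-ratios scaling, and Hoxa3 not with a pseudocount of 0.1), Hoxa3, Hoxa4 and Hoxb9, with log2 fold changes of 1.17, 1.26 and 1.78, and none of the 3 passed with 1 of the 4 libraries left out (0.11 to 0.217). The share that rose over all tested genes was 0.921%.

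**Figure D4:**
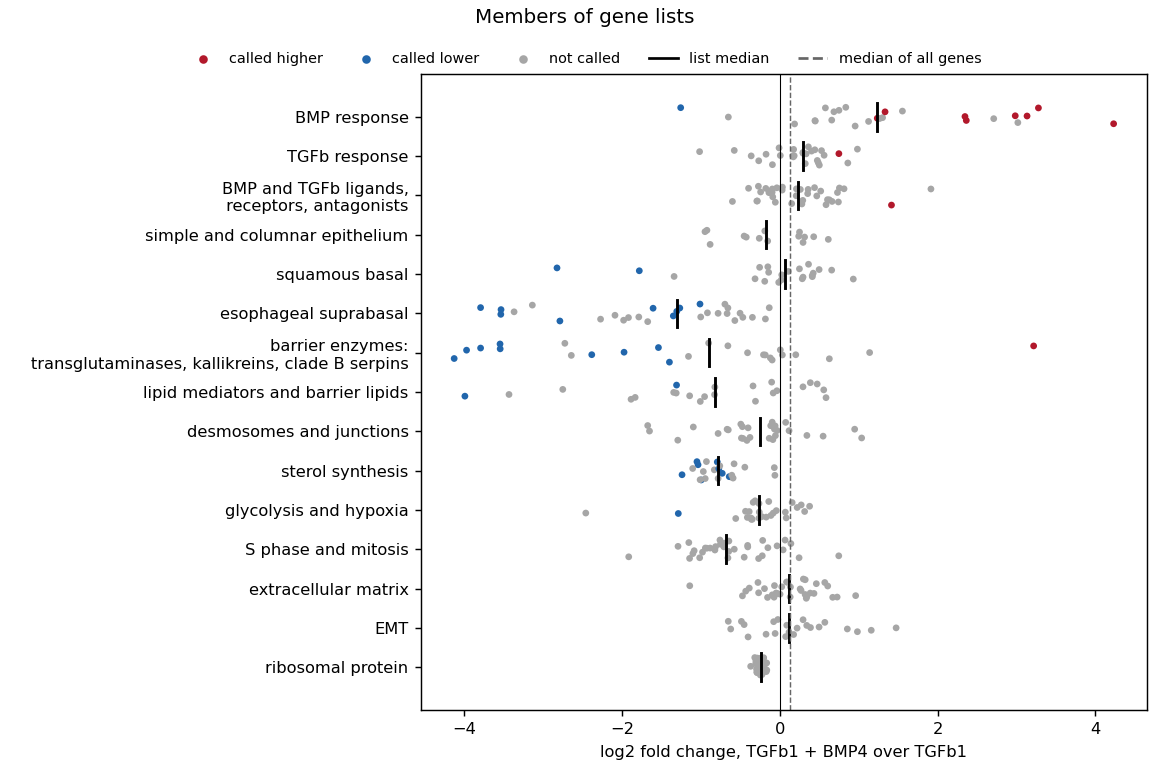
Log2 fold changes of TGFb1 + BMP4 over TGFb1 for the tested members of 15 gene lists, one point per gene, with called genes coloured. The thick bar is the list median and the dashed line the median of all genes, 0.13. The BMP response list lies to the right (median 1.24) and the suprabasal list to the left (median -1.31), while the matrix and EMT lists lie around the dashed line.

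The same dose of BMP4 given with the inhibitor in place of TGFb1 provides a matched comparison from 4 other libraries. Both comparisons were tested in the same fit over all 8 libraries and share each gene's estimate of the spread. Overlaps between their calls are therefore not independent. There 889 genes (5.49%) were higher and 471 (2.91%) lower with BMP4 + inhibitor than with inhibitor. Of the 149 genes that BMP4 raised on top of TGFb1, 77 also rose under the inhibitor (51.7% of the 149, 8.66% of the 889), 2 fell and 70 were not called. Of the 177 genes that fell, 48 also fell under the inhibitor (27.1% of the 177, 10.2% of the 471), 12 rose and 117 were not called. Under the inhibitor the median log2 fold change was 0.83 for the 149 raised genes and -0.37 for the 177 lowered ones, against 0.02 over all genes. Over all tested genes the 2 effects had a correlation of 0.32, a description over 16180 genes that are not independent, as all were measured in the same libraries.

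Several feedback genes rose in both settings. Smad6 had the same log2 fold change in both settings, 2.36 with TGFb1 and 2.36 with the inhibitor (difference 0.00, adjusted p = 0.996). Cdo1 rose by 5.60 with TGFb1 and by 5.52 with the inhibitor, Atoh8 by 3.13 and 2.80, and Nog by 2.99 and 3.84, and none of these differences was called. Id3, given above for the TGFb1 setting, was at 288 and 243 CPM in BMP4 + inhibitor organoids and at 41.8 and 66.3 CPM in inhibitor organoids, so the libraries with BMP4 were alike and the TGFb1 libraries were the lowest of the 8. Its log2 fold changes were 4.23 and 2.31, a difference of 1.93 that was not called (adjusted p = 0.118) but passed with the replicate block (0.0452). Genes that fell in both settings included Krt15, with log2 fold changes of -2.83 with TGFb1 and -3.94 with the inhibitor (adjusted p of the difference 0.0769, and 0.0304 with the replicate block), and Krt4, with log2 fold changes of -3.54 and -2.94 (0.477).

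The effect of BMP4 itself was tested for a difference between the settings. The difference, the effect with TGFb1 minus that with the inhibitor, was called for 208 genes (1.29%), 48 upward and 160 downward, and 3068 genes had an unadjusted p under 0.05. The contrast also covers the presence of the inhibitor, since the labels list it for only one of the settings. The counts depended on the libraries, with 428 and 689 calls under the replicate block and 0 upward by limma without TGFb1 + BMP4 replicate 2, TGFb1 replicate 2 or either inhibitor library, where 854 to 1501 genes were upward at an unadjusted p under 0.05. Without BMP4 + inhibitor replicate 2 there were 222 and 380. Among the genes raised on top of TGFb1, 18 were called higher and 3 lower in the difference. Among those lowered, 34 were lower in the difference and 1 higher. Over all 16180 tested genes these calls numbered 48 higher and 160 lower. The difference contains the change that selected these genes, so the lean of the counts toward that change was partly built in.

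For C1qtnf3, Wfdc18, Chst8 and Fgf1 the effect of BMP4 on the log2(CPM + 1) scale was larger with TGFb1 than with the inhibitor. Wfdc18 was at 110 and 71.7 CPM in TGFb1 + BMP4 organoids and at 10.1 and 8.39 CPM in TGFb1 organoids, but at 0 and 0.1 CPM in BMP4 + inhibitor organoids and listed at 0 in both inhibitor libraries (difference 3.07, adjusted p = 0.0260). C1qtnf3 was at 0.3 and 0.25 CPM in BMP4 + inhibitor organoids and at 0 and 0.2 CPM in inhibitor organoids (difference 3.12, adjusted p = 0.0360). Chst8 was at 1.25 and 0.3 CPM in BMP4 + inhibitor organoids and at 0 and 0.15 CPM in inhibitor organoids (difference 2.62, adjusted p = 0.0475, and 0.0563 with median-of-ratios scaling). With the inhibitor these genes were near 0, where the pseudocount of 1 sets the size of a fold change. With a pseudocount of 0.1 the differences were 2.30 for C1qtnf3, 2.76 for Wfdc18, 1.74 for Chst8 and 2.23 for Fgf1, and none of the 4 passed (adjusted p = 0.207, 0.0882, 0.365 and 0.0822). Prkg2, a kinase gene, differed in sign between the settings, with 39.2 and 42.4 CPM in TGFb1 + BMP4 organoids and 11.9 and 12.7 CPM in TGFb1 organoids, but 2.70 and 7.10 CPM in BMP4 + inhibitor organoids and 13.2 and 16.9 CPM in inhibitor organoids. Its change between the groups with TGFb1 was not called (1.65 ± 0.35, adjusted p = 0.0741, and 0.0193 with the replicate block), and the difference was 3.19 (adjusted p = 0.0436, and 0.0537 with a pseudocount of 0.1). Serpinb12 and Ccl20, a serpin gene and a chemokine gene, were near 0 in the 4 libraries with TGFb1 and fell with BMP4 under the inhibitor, so their differences of 5.79 and 4.37 lie in the inhibitor setting. These did not pass with a pseudocount of 0.1 (0.184 and 0.0628), nor that of Serpinb12 with the stricter filter (0.0504).

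For other genes the effect of BMP4 was larger with the inhibitor than with TGFb1. Krt10 was at 957 and 649 CPM in BMP4 + inhibitor organoids and at 11.2 and 3.15 CPM in inhibitor organoids, while its groups with TGFb1, given above, were not called (difference -6.04, adjusted p = 0.0313). Dsg1a, a desmosomal cadherin gene, was at 1.75 and 1.90 CPM with TGFb1 + BMP4 and 1.1 and 10.2 CPM with TGFb1, against 775 and 945 CPM with BMP4 + inhibitor and 26.2 and 17.3 CPM with inhibitor (difference -6.04, adjusted p = 0.0475). Frem2, a basement membrane protein gene, and Stmn2, a microtubule regulator gene, differed by -5.63 and -5.40 (adjusted p = 0.0260 and 0.0198). With a pseudocount of 0.1 the differences of Dsg1a and Frem2 did not pass (0.0810 and 0.0626). Stmn2 was at 235 and 220 CPM with TGFb1 + BMP4 and at 155 and 152 CPM with TGFb1, against 171 and 84.8 CPM with BMP4 + inhibitor and 1.55 and 0.5 CPM with inhibitor. Id2 and Bambi showed smaller effects with TGFb1, with differences of -1.91 and -2.37 (adjusted p = 0.0420 and 0.0353). The same held for Tgfbi, Cdkn2b, Itgb6 and Krt20, with differences of -2.51, -1.84, -1.53 and -2.75, and that of Cdkn2b missed the threshold with median-of-ratios scaling (0.0545). In TGFb1 organoids these 4 genes averaged 1298, 119, 291 and 329 CPM, against 57.2, 11.1, 53.4 and 1.17 CPM in inhibitor organoids.

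Several squamous genes had a deeper fall with TGFb1 than with the inhibitor, but this did not extend to every squamous family. For the 16 small proline-rich genes the median effect of BMP4 was -1.26 under the inhibitor and -0.97 in the TGFb1 setting, with 8 and 4 genes called lower. The 20 late cornified envelope genes gave medians of -0.69 and -0.51 in that order, with 2 and 3 called lower. Of all tested genes 2.91% were called lower under the inhibitor and 1.09% in the TGFb1 setting, so the counts have unlike backgrounds. Differences between these family medians were not tested. Sprr3 had log2 fold changes of -3.54 with TGFb1 and -1.0 with the inhibitor, a difference of -2.54 (adjusted p = 0.0390). Its fall under the inhibitor was not called (adjusted p = 0.0663). Aqp5 was at 11.3 and 5.10 CPM with BMP4 + inhibitor and at 3.00 and 2.05 CPM with inhibitor. This change was opposite in sign to its fall with TGFb1 but was not called (1.31 ± 0.40, adjusted p = 0.099). The difference for Aqp5 was -4.95 (adjusted p = 0.0260). Serpinb11 and Dhcr7 had differences of -1.41 and -1.06 (adjusted p = 0.0451 and 0.0475), that of Dhcr7 not with a pseudocount of 0.1 (0.0512). Under the inhibitor their log2 fold changes were 0.01 and -0.18, neither called. For the suprabasal list the median log2 fold change was 0.11 under the inhibitor against -1.31 with TGFb1. Under the inhibitor 2 of the 29 members fell and 4 rose, against 2.91% and 5.49% of all tested genes. Kallikreins had a median of -0.55 under the inhibitor, and the difference was not called for any of Klk8, Klk9, Klk13 and Klk14 (adjusted p = 0.0585 to 0.354). With the replicate block it passed for Klk8 (0.0172), Klk13 (0.0211) and Klk14 (0.0384), with a deeper fall in the TGFb1 setting, and not for Klk9 (0.202).

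**Figure D5:**
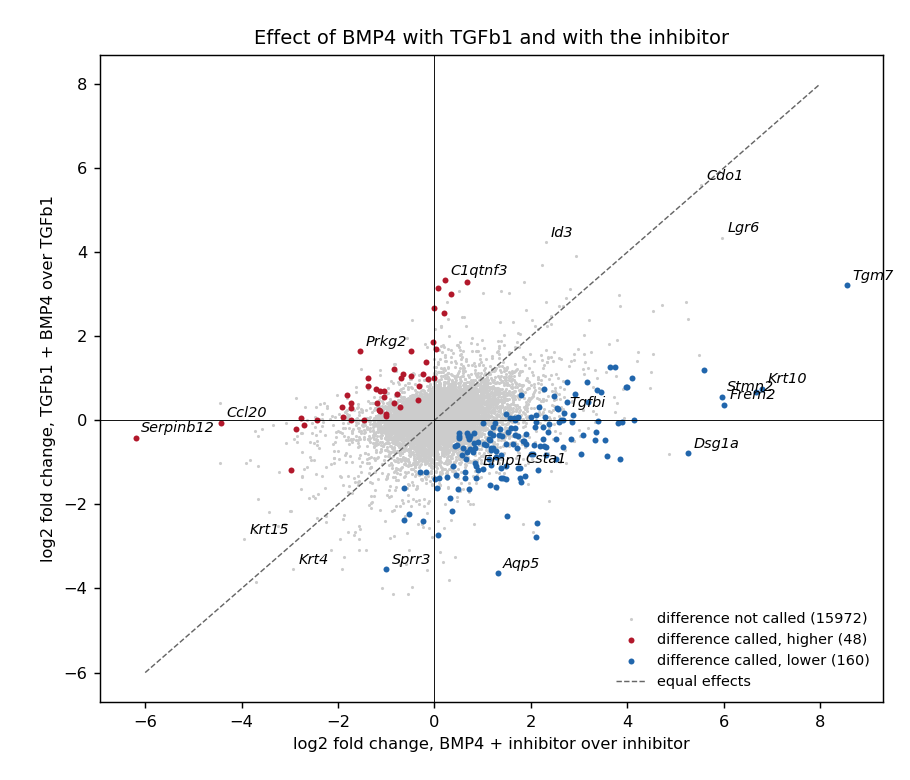
Log2 fold change of BMP4 + inhibitor over inhibitor (horizontal axis) and of TGFb1 + BMP4 over TGFb1 (vertical axis) for the 16180 tested genes, with the 48 genes whose difference was called higher and the 160 called lower coloured. Cdo1 lies near the dashed line of equal effects, C1qtnf3 lies near the vertical axis, and Krt10, Frem2 and Stmn2 lie near the horizontal axis.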

How the data were processed

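Per the labels' protocols, total RNA of organoids was made into 8 Ovation SoLo libraries and read on a NovaSeq. The submitters' processing notes name build GRCm38 and the tools HTSeq, STAR 2.5.3a, Cell Ranger 3.1.0 and edgeR. Annotation and strand setting are not stated in the sources used here, so genes that overlap on opposite strands are uncertain. The authors deposited whole-number scores, which from their values are gene counts scaled to a common total near 20000000 and rounded up, so the sequenced depth is unknown. They also deposited CPM values equal to these scores over the library total. The CPM values were tested because scaled counts do not suit a count model. Genes that reached 1 CPM in 2 or more libraries were fitted with limma 3.58.1 (R 4.3.3, intensity trend, two-sided, Benjamini-Hochberg) on log2(CPM + 1), with group as the only factor and 4 residual degrees of freedom. Fold changes on this scale understate changes of low genes.

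In simulated data with dispersion 0.03 the fit called 59 of 100 genes changed 2-fold, 100 of 100 changed 4-fold and 14 of 15643 unchanged genes. The simulation gave every gene the same dispersion, had no replicate effect and changed only genes at 5 CPM or more. Its rates therefore need not hold for the real libraries. Positions come from GENCODE M21 (GRCm38). Named genes were the 10 largest and 10 smallest called fold changes at a group mean of 5 CPM or more with groups apart and predicted genes left out, up to 3 called members of each list, the 5 largest and 5 smallest called differences of BMP4 effects, and genes fixed by name. List members named beyond this rule were chosen after their values were seen, as were the genes marked so. Members and lists were chosen with earlier results of these data known. The replicate numbers pair the samples by the data: the departures of same-numbered libraries from their groups' means correlated at 0.74 for TGFb1 + BMP4 and TGFb1, and at 0.32 to 0.74 over the 6 pairs of groups. Alternatives were median-of-ratios scaling, no filter and a stricter one, a pseudocount of 0.1, a replicate block, the 2 groups alone, a minimum log2 fold change of 1, and each library left out. Some genes are not reported here.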

Additional observations from a re-analysis of the deposited data

Results flagged for a closer look

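The results below stood out because the effect of BMP4 differed between the TGFb1 setting and the inhibitor setting by limma's test of the difference. Values are log2 differences, the effect with TGFb1 minus the effect with the inhibitor. Positive differences were found for C1qtnf3 (3.12), Chst8 (2.62), Wfdc18 (3.07), Prkg2 (3.19), Serpinb12 (5.79) and Ccl20 (4.37), and, among genes chosen after their values were seen, for Fgf1 (2.65), Gclm (1.55) and Gpx2 (1.75). Negative differences among targets of BMP and TGFb signalling were found for Id2 (-1.91), Bambi (-2.37), Itgb6 (-1.53), Cdkn2b (-1.84) and Tgfbi (-2.51). Negative differences among epithelial genes were found for Krt10 (-6.04), Krt20 (-2.75), Dsg1a (-6.04), Frem2 (-5.63), Tgm7 (-5.34), Aqp5 (-4.95), Sprr3 (-2.54) and Serpinb11 (-1.41), and for Stmn2 (-5.40), a microtubule regulator gene, and Dhcr7 (-1.06), a sterol reductase gene. Genes chosen after their values were seen added Csta1 (-2.92), Emp1 (-2.08), Crnn (-1.85), Sprr1a (-1.74) and Hsd17b2 (-0.98). With a pseudocount of 0.1 the differences of C1qtnf3, Chst8, Wfdc18, Fgf1, Prkg2, Serpinb12, Ccl20, Dsg1a, Frem2 and Dhcr7 did not pass, and with median-of-ratios scaling those of Chst8, Cdkn2b and Gpx2 did not. Each of the calls above was lost with at least 1 of the 8 libraries left out, and none changed sign. With 2 libraries per group, no single library was tested as standing apart from its group.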

How the results depend on the processing

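Of the counts of called genes, 149 higher and 177 lower with TGFb1 + BMP4 than with TGFb1, several alternatives moved one or both by over 1.5 times. They were 94 higher under median-of-ratios scaling, 37 and 43 with no filter, and 0 and 0 when the compared groups were fitted alone with limma, where 3088 genes had an unadjusted p under 0.05. Leaving out 1 library gave 13 to 166 higher and 6 to 149 lower calls. The replicate block, which uses the pairing of replicate numbers, gave 574 higher and 547 lower calls, 119 called list genes in place of 49, and 428 higher and 689 lower calls of the difference of BMP4 effects, in place of 48 and 160. Apart from the block values given beside genes and lists in the results, the block changed no printed call of a named gene or of its difference. The difference had 7 and 20 calls with no filter, 27 higher with a pseudocount of 0.1, and 0 to 222 higher and 0 to 380 lower with 1 library left out (at least 854 and 950 at an unadjusted p under 0.05). No called gene or difference changed sign under any alternative, while values that were not called and lay near 0, such as those of Krt14 and Sox2, did under median-of-ratios scaling. Only 2 libraries per group, of unknown sequenced depth, limit these tests, and the cause of the losses was not tested.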

Other observations

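Further called genes with roles outside the groups above were chosen after their values were seen. Hopx, a homeodomain cofactor gene, was at 88.3 and 79.3 CPM with TGFb1 + BMP4 and at 233 and 305 CPM with TGFb1 (-1.66 ± 0.15, limma adjusted p = 0.0116). Barx2, a homeobox gene, was at 6.8 and 8.74 CPM with TGFb1 + BMP4 and at 32 and 45.5 CPM with TGFb1 (-2.17 ± 0.27, adjusted p = 0.0201). Slpi, a secreted antiprotease gene, was at 83.1 and 66.1 CPM with TGFb1 + BMP4 and at 318 and 411 CPM with TGFb1 (-2.27 ± 0.20, adjusted p = 0.0116). In these 3 genes both TGFb1 + BMP4 libraries lay below both TGFb1 libraries. Dio2, which activates thyroid hormone, was higher, at 25.4 and 52.7 CPM with TGFb1 + BMP4 and at 2.85 and 4.45 CPM with TGFb1 (3.04 ± 0.48, adjusted p = 0.0366). Porcn, the acyltransferase gene that modifies Wnt ligands for secretion, was at 70.1 and 75.5 CPM with TGFb1 + BMP4 and at 34.2 and 34.9 CPM with TGFb1 (1.05 ± 0.14, adjusted p = 0.0244). Ugdh, which makes the UDP-glucuronate used for hyaluronan and proteoglycans, was at 243 and 224 CPM with TGFb1 + BMP4 and at 68 and 68.2 CPM with TGFb1 (1.76 ± 0.28, adjusted p = 0.0362). Dio2, Porcn and Ugdh did not pass with any of the 4 libraries left out (0.0865 to 0.159), nor did Hopx, Barx2 and Slpi without TGFb1 + BMP4 replicate 1 or 2 (0.0527 to 0.102) or Barx2 without TGFb1 replicate 2 (0.0955).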
